A study of Mus musculus with 4 samples.

Results

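The machinery that divides and joins mitochondria was compared between L929 and NIH3T3, both unstimulated mouse fibroblast lines, through the 9 genes Dnm1l, Mfn1, Mfn2, Opa1, Fis1, Mff, Oma1, Yme1l1 and Pgam5. Members were taken as every probe set of the Affymetrix Mouse Genome 430 2.0 array whose platform symbol was one of these names. This gave 24 probe sets of 9 genes, among 45037 non-control probe sets and 18193 named genes. L929, a line from mouse connective tissue that the submitters describe as sensitive to necrosis, and NIH3T3, a line from mouse embryos that they describe as sensitive to apoptosis, were each measured on 2 arrays, and neither had been given a treatment. Each way of dying is stood for by 1 line, so line and way of dying cannot be told apart. The labels do not say that the replicates came from separate cultures, and the p-values therefore measure only a spread between arrays that could be technical.

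Mitochondria form a network that is continually cut and rejoined by large GTPases of the dynamin superfamily. The cytosolic dynamin DRP1, encoded by Dnm1l, is recruited by outer-membrane adaptors and constricts the organelle, whereas the mitofusins join outer membranes and OPA1 joins inner membranes and holds cristae in shape. OPA1 is cut by the inner-membrane proteases OMA1, which is activated by stress and loss of membrane potential, and YME1L1, which works in unstressed cells, and the balance of long and short OPA1 sets the capacity for fusion. Fission and OPA1 cleavage are known to accompany the release of cytochrome c in apoptosis, and the phosphatase PGAM5 has been reported, in human cells, to act on DRP1 in necrosis.

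Values are MAS5 signals in arbitrary units, scaled so that the arrays share a trimmed mean. As deposited, the trimmed mean was 134 to 142 in L929, against 135 and 210 in NIH3T3. By this measure NIH3T3 replicate 2 was the brightest array, and it was scaled by 0.726. It was not the brightest by the control probe sets. Their deposited mean was 1593 and 1523 in L929, against 1668 and 1582 in NIH3T3 replicates 1 and 2. Whether the brightness of NIH3T3 replicate 2 came from the array or from its RNA was not tested. Differences are L929 minus NIH3T3 on the scale log2(signal + 8.01), an offset that understates differences of dim probe sets. A probe set was tested if both arrays of a line lay above a filter level of 17.3, and a call needed a fold above 1.5 and an adjusted p under 0.05 (Benjamini-Hochberg, over all tested probe sets). The 8 fibroblast markers Col1a1, Col1a2, Col3a1, Vim, Pdgfrb, Thy1, S100a4 and Fn1 were above that level on every array of both lines. Of these, Pdgfrb was called higher in L929 (1022 against 510 in NIH3T3). Thy1 (24.0 against 2223) and Fn1 (2339.5 against 5651.8) were called lower. Of 6 macrophage markers, Csf1r, Cd68, Adgre1 and Cd14 were above the level on all 4 arrays, Lyz2 on both L929 arrays and 1 NIH3T3 array, and Ptprc, the pan-leukocyte gene, on none. At the gene level Lyz2 was called higher in L929 (40.2 against 11.8 in NIH3T3), and Cd14 (47.8 against 227) and Cd68 (31.6 against 65.4) lower. Of 5 endothelial markers, Kdr was above it on 3 of 4 arrays, Cdh5 on 1 array of each line, and Pecam1, Tek and Vwf on none. Of 6 epithelial markers, Epcam, Krt8 and Krt5 were above it on all 4 arrays, Cdh1 on 1 L929 array, and Krt18 and Cldn4 on none. Summed signals of the macrophage markers were 224 to 251 in L929 and 433 to 434 in NIH3T3, of the epithelial markers 152 to 158 in L929 and 162 to 189 in NIH3T3, and of the endothelial markers 59.0 to 78.1 in L929 and 55.6 to 78.3 in NIH3T3. None of these markers was listed at 0, and the part of such markers in the results below was not tested.

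Of the 24 member probe sets 20 were tested, and each of the 9 genes had at least 1 of them. L929 had less Dnm1l, the fission GTPase, and less Oma1, the stress-activated OPA1 protease, and more Mfn2, a mitofusin. The other 6 genes had no called probe set. In numbers, 1 tested probe set was called higher in L929 and 4 lower, which is 25% of the members against 31.6% of all 27438 tested probe sets. Over all probe sets 14.9% were called higher and 16.7% lower. The members' median log2 difference was -0.12, against -0.01 over all tested probe sets, and the median size of the difference was 0.30 against 0.44. The arrays of the 2 lines did not overlap for 15 of the 20, a share of all tested probe sets that stood at 69.9%. Read against these shares, the counts are near the background and give no result about the 9 genes as a group. In bulk RNA, fewer cells with a transcript and less of it per cell cannot be told apart.

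**Figure D1:**
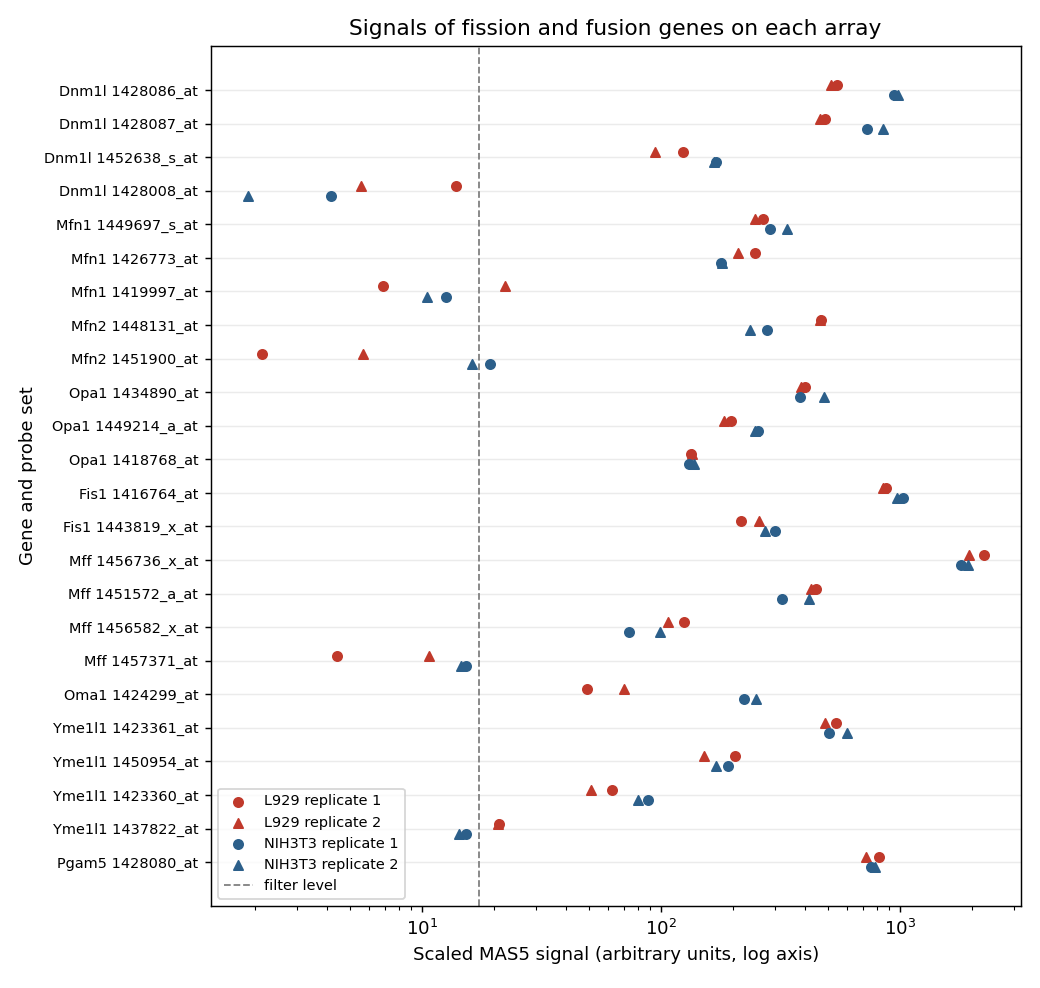
Scaled MAS5 signal (arbitrary units, log axis) of the 24 member probe sets, with L929 arrays in red above NIH3T3 arrays in blue, circles for replicate 1, triangles for replicate 2 and a dashed line at the filter level of 17.3. The arrays of the 2 lines do not overlap for 15 of the 20 tested probe sets, beside 69.9% of all tested probe sets. Among the 15 are the 3 bright Dnm1l probe sets, Mfn2 1448131_at and Oma1. Dnm1l 1428008_at and Mff 1457371_at lie below the level on all 4 arrays, and Mfn1 1419997_at and Mfn2 1451900_at lie above it on 1 of 4.

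**Figure D2:**
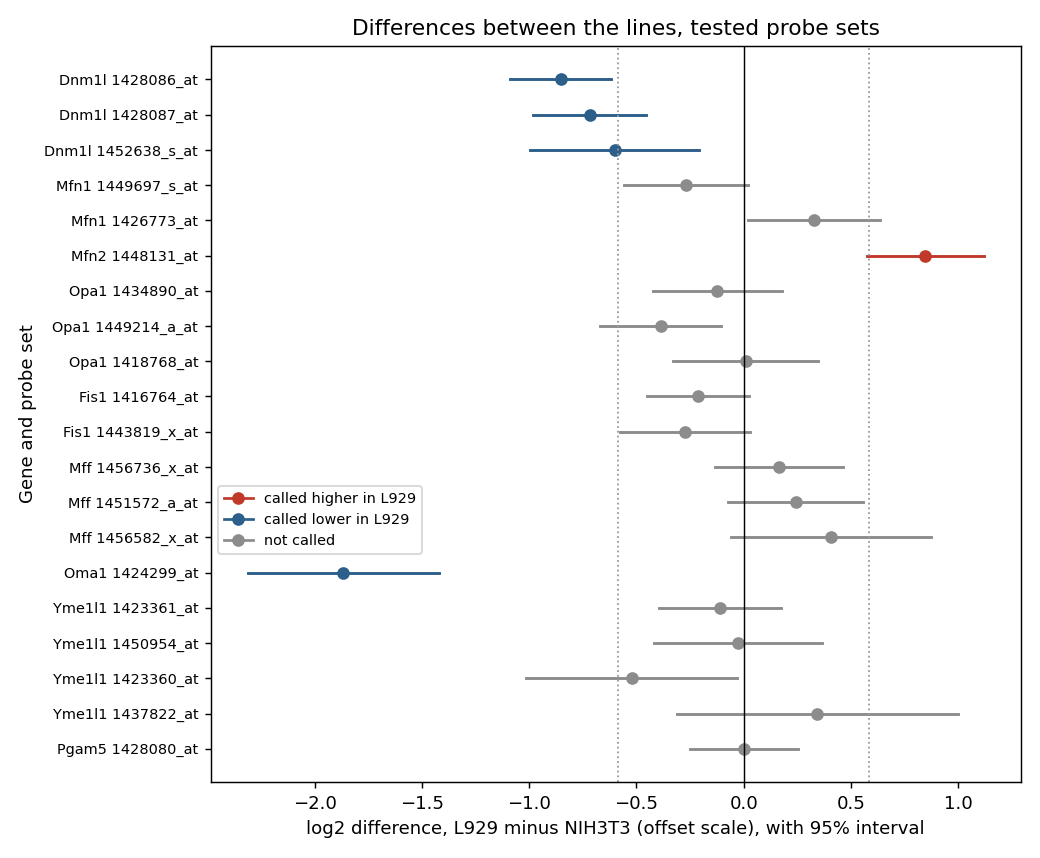
Log2 difference, L929 minus NIH3T3, of the 20 tested probe sets with its 95% interval. Red marks the call higher in L929, blue the 4 calls lower and grey the 15 probe sets not called, and dotted lines mark 1.5-fold in either direction. Oma1 at -1.87 lies farthest from 0, and Pgam5 lies at 0.00.

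Because Oma1, Dnm1l and Mfn2 were the genes that differed, the RefSeq promoter windows of these genes (build GRCm38.p6, 250 bases before to 50 after a transcript start) are printed here, taking the most upstream start where there are several. Dnm1l has 2 windows in that table and Mfn2 has 3. Capitals mark GGGCGG, the SP1 motif, or CCAAT, the CCAAT box, on either strand.
Oma1 promoter, chr4:103313596-103313895, plus strand: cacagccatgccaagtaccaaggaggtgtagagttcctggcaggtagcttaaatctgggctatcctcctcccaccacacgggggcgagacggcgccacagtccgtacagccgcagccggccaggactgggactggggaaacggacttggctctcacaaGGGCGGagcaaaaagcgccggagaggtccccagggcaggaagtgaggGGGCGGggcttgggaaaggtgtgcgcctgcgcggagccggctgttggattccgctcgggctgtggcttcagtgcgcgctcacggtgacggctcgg
Dnm1l promoter, chr16:16358982-16359281, minus strand: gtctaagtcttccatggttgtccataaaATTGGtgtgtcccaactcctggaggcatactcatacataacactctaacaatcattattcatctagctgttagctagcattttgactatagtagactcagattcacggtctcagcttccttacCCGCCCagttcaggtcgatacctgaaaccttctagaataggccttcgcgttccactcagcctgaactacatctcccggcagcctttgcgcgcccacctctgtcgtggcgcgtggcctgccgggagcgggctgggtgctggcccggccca
Mfn2 promoter, chr4:147904860-147905159, minus strand: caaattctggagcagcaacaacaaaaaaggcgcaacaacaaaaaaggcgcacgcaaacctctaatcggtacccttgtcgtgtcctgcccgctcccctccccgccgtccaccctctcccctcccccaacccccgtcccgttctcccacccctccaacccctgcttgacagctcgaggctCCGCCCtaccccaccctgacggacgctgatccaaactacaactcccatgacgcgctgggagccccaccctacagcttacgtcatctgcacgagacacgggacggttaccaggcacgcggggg
The SP1 motif occurred at positions -92 and -45 from the start of Oma1, at -99 for Dnm1l and at -72 for Mfn2, and the CCAAT box at -222 for Dnm1l. No printed match overlapped another. Over both strands of the 13 windows of 8 members, GGGCGG occurred in 11 windows, CCAAT in 6, the ETS motif CCGGAAG in 5 and the NRF1 core GCGCATGC in 1, which belongs to Opa1. The windows of Mfn2 overlap each other, as do those of Mff, so the 13 are not independent. The E-box CACGTG and the ERR motif TNAAGGTCA occurred in 0 of the 13. Of all 32851 windows 35.7% held GGGCGG, 37.4% CCAAT, 8.86% CCGGAAG, 2.71% GCGCATGC, 7.15% CACGTG and 1.28% TNAAGGTCA. The 2 windows without GGGCGG both belong to Mfn2, whose printed window holds it. A match of letters is a description and shows no binding. Pgam5 had no window in the table.

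Among the fission genes, Dnm1l was lower in L929 by every probe set bright enough to test. These probe sets were read on the same arrays, and 1428086_at and 1428087_at share a source sequence, so they are not independent. By 1428086_at Dnm1l measured 543 and 513 in L929, against 941 and 979 in NIH3T3. The log2 difference was -0.85 ± 0.10 (SE, 2 arrays per line, 95% interval -1.09 to -0.62), a 1.81-fold difference with a limma adjusted p of 0.000303. Both L929 arrays lay well under both NIH3T3 arrays. By 1428087_at Dnm1l measured 483 and 461 in L929, against 724 and 844 in NIH3T3, with a log2 difference of -0.72 ± 0.11 (SE) and a limma adjusted p of 0.00143, a call lost without scaling (limma adjusted p = 0.0676). The probe set 1452638_s_at gave 124 and 94.5 in L929, against 170 and 166 in NIH3T3, and a log2 difference of -0.60 ± 0.17 (SE, limma adjusted p = 0.0237). The call of 1452638_s_at stood just past the fold threshold, at 1.52-fold. It was lost without L929 replicate 2 (log2 -0.42), without NIH3T3 replicate 1 (-0.58) and without NIH3T3 replicate 2 (-0.62). It was also lost with median scaling (-0.54), quantile normalization (-0.51), an offset of 32 (-0.51), no trend in the fit and no scaling, whereas 1428086_at was called under all 14 alternatives. In the 4 alternatives that leave out an array, the lone array of a line is assumed to vary like the other line's arrays, so calls kept or lost there rest on that line's spread. The fourth Dnm1l probe set, 1428008_at, gave 13.8 and 5.54 in L929, against 4.18 and 1.87 in NIH3T3, all below the filter level, and was not tested.

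The outer-membrane fission members Fis1 and Mff were not called. Fis1, a small tail-anchored protein, measured 876 and 850 in L929, against 1030 and 973 in NIH3T3, by 1416764_at. Its log2 difference was -0.21 (95% interval -0.45 to 0.03, limma adjusted p = 0.145), and the second probe set, 1443819_x_at, stood at -0.27 (-0.57 to 0.03). The L929 arrays were below the NIH3T3 arrays for both Fis1 probe sets, by less than the fold threshold. Mff, the mitochondrial fission factor and a main DRP1 receptor, had 3 tested probe sets, at 0.16, 0.24 and 0.41. The brightest of them, 1456736_x_at, measured 2234 and 1938 in L929, against 1796 and 1919 in NIH3T3. Its arrays did not overlap, although L929 replicate 2 and NIH3T3 replicate 2 were close. The dimmest, 1456582_x_at, had an interval of -0.06 to 0.87 that reached beyond 1.5-fold, so its arrays do not settle whether a difference of that size was present. A further Mff probe set, 1457371_at, gave 4.42 and 10.7 in L929, against 15.3 and 14.5 in NIH3T3, and was not tested.

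Pgam5, a phosphatase of the mitochondrial membranes that has been reported to act on DRP1, measured 817 and 722 in L929, against 756 and 781 in NIH3T3. The L929 arrays enclosed the NIH3T3 arrays. The log2 difference was 0.00, with a 95% interval of -0.25 to 0.25 that lies inside 1.5-fold on both sides.

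Among the outer-membrane fusion genes, Mfn2 was higher in L929 and its paralogue Mfn1 was not called. Mfn2, which also tethers mitochondria to the endoplasmic reticulum, measured 465 and 464 in L929, against 276 and 235 in NIH3T3, by 1448131_at. The log2 difference was 0.85 ± 0.12 (SE, 95% interval 0.57 to 1.12), a 1.80-fold difference with a limma adjusted p of 0.000713. The L929 arrays agreed closely and both lay above the NIH3T3 arrays. Without scaling the call was lost (log2 0.57, limma adjusted p = 0.43). That setting also moved the median of all tested probe sets to -0.28, and relative to it Mfn2 stood at 0.85. Taking off that median is itself a scaling, so a value near the scaled one follows from the step. It does not bear on the lost call. The second Mfn2 probe set, 1451900_at, gave 2.15 and 5.67 in L929, against 19.2 and 16.2 in NIH3T3. These signals run the other way, but 1 of 4 arrays was above the filter level and the probe set was not tested.

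Mfn1, the mitofusin with the stronger tethering activity, gave opposite signs by its 2 tested probe sets. By 1449697_s_at it measured 266 and 246 in L929, against 287 and 336 in NIH3T3, a log2 difference of -0.27 (95% interval -0.56 to 0.02, limma adjusted p = 0.129). By 1426773_at it measured 246 and 210 in L929, against 179 and 181 in NIH3T3, a difference of 0.33 (0.02 to 0.63, limma adjusted p = 0.0875). Neither was called, and the direction for Mfn1 was not settled. Its remaining probe set, 1419997_at, was above the filter level on 1 of 4 arrays, at 22.4 in L929 replicate 2.

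Opa1, the inner-membrane fusion GTPase, was not called by any of its 3 probe sets. By 1434890_at it measured 398 and 384 in L929, against 380 and 478 in NIH3T3, with overlapping arrays and a log2 difference of -0.12 (95% interval -0.42 to 0.18). By 1418768_at it measured 134 and 135 in L929, against 131 and 137 in NIH3T3, a difference of 0.01. The third probe set, 1449214_a_at, measured 196 and 183 in L929, against 254 and 247 in NIH3T3. It passed the p threshold at a log2 difference of -0.39 (limma adjusted p = 0.0353), but its 1.31-fold size lay under the fold threshold. That probe set differed from the other 2 of Opa1 in its size, and the difference between probe sets was not tested.

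The proteases that cut OPA1 gave different results. Oma1 had the largest difference of the 9 genes: it measured 49.2 and 70.1 in L929, against 223 and 249 in NIH3T3. The log2 difference was -1.87 ± 0.19 (SE, 95% interval -2.31 to -1.42), a 3.65-fold difference with a limma adjusted p of 0.000131, and 7.15% of all tested probe sets had a larger one. Every L929 array lay below every NIH3T3 array, and the call held in all 14 alternatives, with log2 differences from -2.14 to -1.56. Oma1 has 1 probe set on the array, so no second one was available to compare.

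Yme1l1, the protease active in unstressed cells, had 4 tested probe sets and no call. By the brightest, 1423361_at, it measured 538 and 483 in L929, against 503 and 602 in NIH3T3, with overlapping arrays and a log2 difference of -0.11 (95% interval -0.39 to 0.18). By 1450954_at the difference was -0.03, also with overlapping arrays. The probe set 1423360_at measured 62.3 and 50.7 in L929, against 88.4 and 80.3 in NIH3T3, a difference of -0.52 (-1.01 to -0.03, limma adjusted p = 0.0883). The dimmest, 1437822_at, gave 21.1 and 20.8 in L929, against 15.3 and 14.3 in NIH3T3, where it was below the filter level. The interval of these last 2 probe sets reached beyond 1.5-fold. Of the 15 member probe sets not called, 10 had intervals that lay within 1.5-fold in both directions.

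Ratios of members within an array do not depend on how the array was scaled, so 6 pairs of genes were also set against each other in the deposited signals, by the brightest probe set of each. Taking the mean of the NIH3T3 arrays as 0, the log2 ratio of Mfn2 to Dnm1l was 1.69 and 1.77 in L929, against 0.14 and -0.14 in NIH3T3. This is a 3.31-fold higher ratio of Mfn2 to Dnm1l signal in L929. The ratio of Mfn2 to Mfn1 was 2.21-fold higher in L929, at 1.09 and 1.20 against 0.23 and -0.23 in NIH3T3. It used Mfn1 1449697_s_at, at a log2 difference of -0.27. The other tested Mfn1 probe set, 1426773_at, stood at 0.33. With that probe set the ratio would differ less between the lines, and it was not computed. The ratio of Oma1 to Yme1l1 was lower in L929, at -2.23 and -1.56 against 0.05 and -0.05 in NIH3T3, with the wider spread in L929. The difference between lines was -1.03 on the log2 scale for the ratio of Dnm1l to Mff, -0.65 for Dnm1l to Fis1 and -0.99 for Opa1 to Mfn2. The arrays of the 2 lines did not overlap for any of the 6 ratios, and 69.9% of all single tested probe sets also did not overlap. Every pair held Mfn2, Dnm1l or Oma1, which were called in these same arrays. The ratios are therefore not separate from those calls. Each ratio gave p = 0.333 in a two-sided exact permutation test, the smallest value that 2 arrays against 2 allow. After Benjamini-Hochberg adjustment over the 6 it was 0.333.

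**Figure D3:**
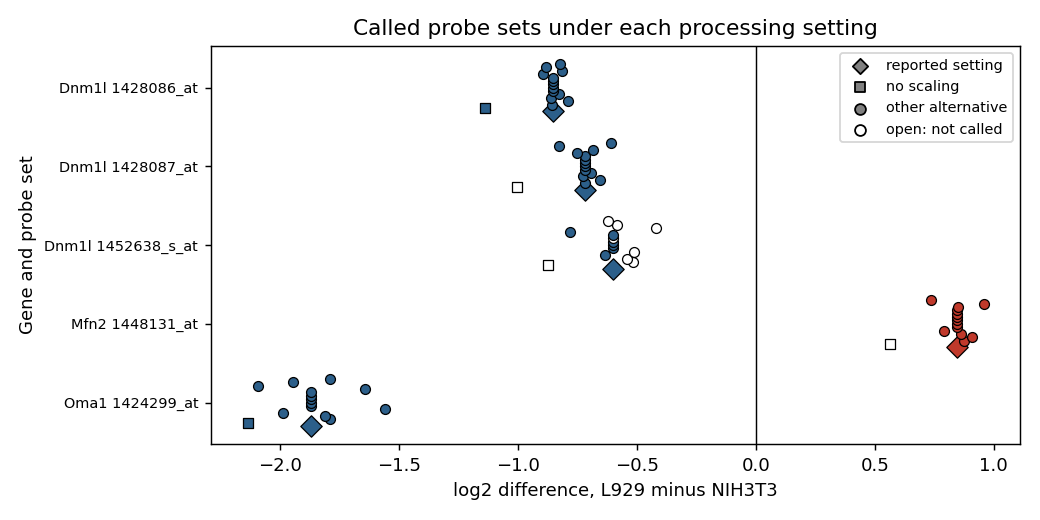
Log2 difference, L929 minus NIH3T3, of the 5 called probe sets under the reported setting (diamond), with no scaling (square) and under the other 13 alternatives (circles). Filled symbols were called and open symbols were not, and every value of a probe set lies on the same side of 0.

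Genes known to act with this machinery were taken as 8 lists of 106 genes. Of these, 96 had a probe set naming no other gene and 91 were tested, with 1 value per gene from its brightest probe set. Tested probe sets of the same gene ran from -0.36 to 0.83 for Dnm2 and from -2.23 to -0.28 for Kif5b. For Inf2 they lay closer, from -1.41 to -1.16. The counts below can therefore depend on the probe set taken. Of the 91, 12 were called higher in L929 and 10 lower, together 24.2%, against 34.8% of all 12676 tested genes (17.3% higher and 17.6% lower). Their median log2 difference was 0.09, against 0.01 over all genes. Without scaling, 1 was called higher and 5 lower: Mtfp1 kept its higher call and Inf2, Dnm1, Senp5, Rock1 and Taz their lower calls, and the other 16 lost theirs.

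Fission adaptors and cofactors held called genes in both directions, with 1 of 10 higher, 2 lower and a median of -0.26. Mtfp1, an inner-membrane protein needed for fission, averaged 154 ± 20.9 in L929 and 23.2 ± 5.28 in NIH3T3 (SD, 2 arrays per line), a 5.20-fold difference. Inf2, a formin that assembles actin at sites of fission, averaged 325 ± 15.8 in L929 and 879 ± 42.2 in NIH3T3, 2.66-fold lower. Mtfr1, a fission regulator, was 1.64-fold lower, at 363 ± 71.1 in L929 and 613 ± 207 in NIH3T3, a call lost without L929 replicate 2 or NIH3T3 replicate 2, with no filter and with no trend in the fit. The DRP1 receptors Mief1 and Mief2, which encode MiD51 and MiD49, were not called, at log2 differences of -0.21 and -0.51.

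Of 5 other tested dynamin superfamily genes 0 were called higher by limma, 1 of them at an unadjusted p under 0.05, and 1 was called lower, with a median log2 difference of -0.16. That gene was Dnm1, the classical dynamin of endocytosis, at 121 ± 4.84 in L929 and 935 ± 91.6 in NIH3T3 (SD, 2 arrays per line), a 7.30-fold difference with a limma adjusted p of 5.68e-07. Among 13 tested enzymes that modify or position DRP1, 1 was higher and 2 were lower, with a median of -0.38. Senp5, a SUMO protease that acts on DRP1, was 2.57-fold lower, at 197 in L929 and 519 in NIH3T3, and the kinase Rock1 was 1.96-fold lower. Rala, a small GTPase that brings DRP1 to mitochondria in mitosis, was 1.91-fold higher in L929, at 1023 against 531 in NIH3T3.

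Genes of fusion and mitochondrial phospholipids split, with 2 of 8 higher and 2 lower and a median of 0.40. Crls1, the cardiolipin synthase, was 1.86-fold higher in L929, at 768 ± 61.1 against 410 ± 32.8 in NIH3T3. Taz, or tafazzin, which remodels cardiolipin, was 3.08-fold lower, at 68.1 ± 2.58 in L929 and 226 ± 14.3 in NIH3T3. Prelid1, which carries phosphatidic acid to the inner membrane, was 1.52-fold higher, a call lost without L929 replicate 1, L929 replicate 2 or NIH3T3 replicate 2, with no trend and with quantile normalization. Lpin1, a phosphatidic acid phosphatase, was 1.52-fold lower, a call lost when any of the same arrays was left out, with quantile or median scaling and with an offset of 32.

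The list of inner-membrane proteases and prohibitins, which also holds matrix proteases such as Lonp1 and Clpp, had 1 of 11 higher and 2 lower and a median of -0.11. Lonp1, the Lon protease of the matrix, was 2.37-fold higher in L929, at 1383 ± 81.9 against 580.1 ± 45.3 in NIH3T3. Spg7, or paraplegin, was 1.61-fold lower, a call lost without L929 replicate 1 or either NIH3T3 array and with no trend, and the matrix protease Clpp was 1.55-fold lower, a call lost without NIH3T3 replicate 1 and with median scaling. In the MICOS and cristae list 2 of 12 were called higher and 0 lower by limma, 1 being lower at an unadjusted p under 0.05, with a median of 0.10. These were Micos10, a core MICOS subunit, at 1.82-fold, and Samm50, the outer-membrane sorting component, at 1.56-fold, a call lost with quantile normalization. Of 14 genes of transport, contact and mitophagy 1 was higher and 1 lower, namely Trak1, a kinesin adaptor, 1.58-fold higher, and Rhot2, the Miro GTPase it binds, 1.82-fold lower in L929.

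Of 18 import, porin, metabolic and respiratory genes, limma called 4 higher and 0 lower, 1 being lower at an unadjusted p under 0.05, with a median log2 difference of 0.21. These counts stand beside 17.3% of all tested genes called higher and 17.6% lower, and all 4 calls were lost without scaling. Timm23, a channel of the inner-membrane translocase, averaged 2913 ± 82.0 in L929 and 1472 ± 181 in NIH3T3 (SD, 2 arrays per line), and Sdha, a subunit of complex II, was 1.72-fold higher. The other 2 calls were Cycs, cytochrome c, 1.51-fold higher and lost in 8 of 14 alternatives, and Uqcrc2, a complex III subunit, 1.66-fold higher and lost in 3; both lie outside the naming rule. The mitochondrial gene levels stand beside the lower Dnm1l and Oma1 signals, and the part of mitochondrial content in those differences was not tested.

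**Figure D4:**
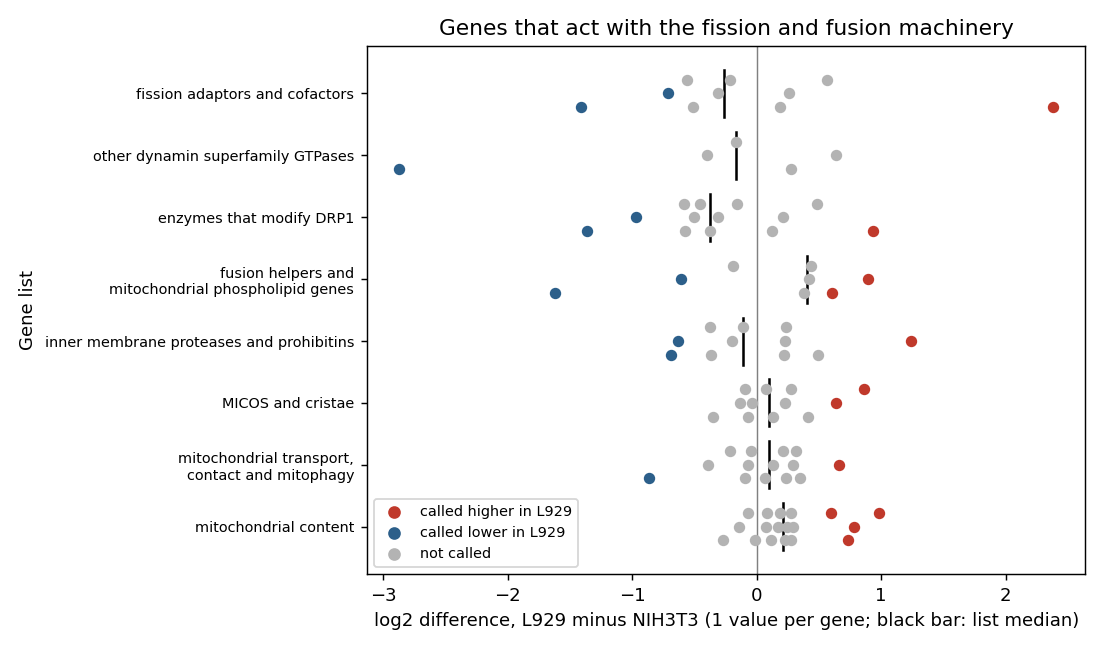
Log2 difference, L929 minus NIH3T3, of the 91 tested genes of 8 lists, 1 point per gene, with a black bar at each list's median. Red marks genes called higher in L929 and blue genes called lower, with Mtfp1 at 2.38 and Dnm1 at -2.87 at the extremes.

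The genes next to the called members on the chromosome did not all differ the same way. Among the 3 nearest tested genes on each side, chosen after the members' values were seen, Oma1 on chromosome 4 had 0 called higher by limma, 1 being higher at an unadjusted p under 0.05, and 1 called lower, the nucleotide sugar transporter Slc35d1 at -0.74. Dnm1l on chromosome 16 had 1 higher, Pkp2 at 2.56, and 1 lower, its next neighbour Fgd4 at -2.43. Mfn2 on chromosome 4 had 2 higher, Zfp979 at 2.33 and its next neighbour Plod1 at 0.59, and 1 lower, Nppb at -1.65. Over all 12676 tested genes, 17.3% were called higher and 17.6% lower. Beside these shares, the counts of so few neighbours give no result about the loci. The genes whose centred log2 values over the 4 arrays lay nearest to those of Dnm1l were the cohesin gene Stag2, the clathrin light chain gene Cltb and the proteasome activator gene Psme4, 1.82-fold, 1.81-fold and 1.78-fold lower in L929, at distances of 0.03 to 0.05 on the log2 scale. They were picked for this closeness, so folds like that of Dnm1l follow from the choice.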

How the data were processed

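Total RNA of 2 samples each of L929 and NIH3T3 was measured on Affymetrix arrays. The authors deposited linear intensities, MAS5 signals per the submitters' processing notes. The MAS5 version, its scaling target and any build were not given in the sources used here. Groups and replicates came from the sample titles. After 64 control probe sets were set aside, each array was scaled to a common mean that leaves out 2% of probe sets at each end, and log2 was taken after adding 8.01, the 25th percentile of scaled signals. The filter level of 17.3 is their 40th percentile, not a detection limit. The lines were compared in limma 3.58.1 (R 4.3.3; lmFit, then eBayes with a trend), with calls at the thresholds stated by the submitters, who name no test. Genes were named from the platform annotation where it gives 1 symbol, true of 34945 probe sets. Related genes were described with 1 value per gene, naming up to 2 called genes per direction and list. The fit was tested on simulated data. The members, lists and alternatives were chosen with earlier results of these data known. Replicates correlated at r = 0.982 in L929 and 0.981 in NIH3T3 across tested probe sets, against 0.835 to 0.843 between lines, as a description. The number of arrays limits the precision. A comparison of protein sequences was planned and not made.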

Additional observations from a re-analysis of the deposited data

How the results depend on the processing

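Without scaling of any array, the setting that moved the counts most, limma called 0 member probe sets higher in L929, with 0 at an unadjusted p under 0.05, and 2 lower, and of the related genes 1 was higher and 5 were lower, while 19.2% of all tested probe sets were called and 28.5% of those calls were higher, against 47.2% with scaling. Under the other 13 alternatives 1 member probe set was higher and 3 to 4 were lower. Leaving out 1 array at a time, where the lone array of a line is assumed to vary like the other line, gave 1 higher and 3 to 4 lower members, and 9 to 13 higher and 7 to 12 lower related genes. Of 279 values of single member probe sets under an alternative, 269 kept their side of the threshold, 10 lost a call, 3 of these without scaling, and 0 reversed a called direction. The 22 named related genes lost a call in 47 of 308 cases and reversed in 0. The replicate numbers are not stated to pair samples, and deviations of same-numbered arrays correlated at 0.01; with the replicate block 1 member probe set was higher and 4 were lower, and 11 related genes were higher and 10 lower. Dim probe sets near the filter level limit what could be tested for 4 member probe sets.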
